A study of Mus musculus with 12 samples.

Results

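The neutrophil-attracting CXC chemokines of mouse skin were represented by a listed set of 5 genes, Cxcl1, Cxcl2, Cxcl3, Cxcl5 and Ppbp, out of 22180 genes measured on expression arrays. Each of the 5 had 1 row in the deposited array table that named it alone, and that row stood for the gene. The series asked what sustains psoriasis-like skin inflammation in mice that overexpress IL-17C when IL-6 is also missing. It holds 12 arrays, each hybridised with RNA from a pool of dorsal skin of 4 or 5 male and female C57Bl/6 mice. The pool sizes add up to 58, which counts a mouse again if it gave skin to several pools. There were 6 groups of 2 pools, 1 pool taken at 10 weeks of age and 1 at 14 weeks.

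The control group WT carried no transgene and an intact Il6 gene. IL-6KO mice lacked IL-6 and carried no transgene. IL-17C+ mice carried an IL-17C transgene with Il6 intact, and IL-17C+KO mice carried the transgene and lacked IL-6. In both transgenic lines, skin labelled involved and skin labelled uninvolved was sampled, while WT and IL-6KO skin came from matching regions of the back. A tag in the labels marked the WT pools as uninvolved and the IL-6KO pools as involved, although neither line carried the transgene. The labels do not name the promoter or cell type that drives the transgene, nor do they say whether 1 line's involved and uninvolved skin came from the same mice. The pools of a group differed in age and no second pool of the same age existed, so the p-values measure the spread between these pools after a common age shift.

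The CXC chemokines with a glutamate-leucine-arginine motif before their first cysteines are small secreted proteins that draw neutrophils out of the blood. They bind the receptor CXCR2 on neutrophils, and keratinocytes, fibroblasts, endothelial cells and myeloid cells make them when exposed to IL-1, TNF or cytokines of the IL-17 family. In psoriasis, neutrophils collect in the upper epidermis, and these chemokines are among the signals known to bring them there. In the mouse, Cxcl1, Cxcl2 and Cxcl3 are close relatives, Cxcl5 is a product of epithelial and other tissue cells, and Ppbp encodes platelet basic protein, the precursor of a neutrophil attractant stored in platelets.

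Cxcl1, Cxcl2, Cxcl3 and Cxcl5 were high in the pools labelled IL-17C+ involved and IL-17C+KO uninvolved and low in the pools of the other 4 groups. The values below are log2 of the deposited array intensity, on which a difference of 1 is a doubling. In each of the 4 genes the lowest of the 4 high pools lay above the highest of the other 8, and Ppbp overlapped. Of all genes, 1.97% were separated in this way, a split that was formed after the values were seen. The labels of site therefore ran in opposite directions in the transgenic lines, with high chemokine values under the label involved in IL-17C+ skin and under the label uninvolved in IL-17C+KO skin.

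Levels of Il17c and Il6, read first as a check of the genotypes, did not follow the labels either. Il17c, the overexpressed cytokine, lay at 4.67 and 4.96 in WT skin at 10 and 14 weeks, at 4.74 and 4.16 in IL-17C+ uninvolved skin, and at 6.30 and 6.17 in IL-6KO skin, which carried no transgene. It lay at 5.81 and 6.63 in IL-17C+ involved skin, 6.16 and 6.25 in IL-17C+KO uninvolved skin and 5.32 and 5.62 in IL-17C+KO involved skin. Il6 lay at 2.68 and 2.79 in IL-6KO skin, compared with 2.92 and 2.88 in WT skin. All of these levels were below their array medians, so they cannot check the IL-6KO label. Il6 lay at 4.93 and 5.00 in IL-17C+KO uninvolved skin. In IL-17C+KO involved skin it lay at 3.14, below its array median, and 4.64. In IL-17C+ skin, labelled as having Il6 intact, it lay at 4.23 and 3.21 (involved) and at 3.28 and 3.02 (uninvolved). Only the first of these was above its array median. The labels do not say where the probes of either gene lie relative to the transgene or the deleted part, so neither gene settles a label. The groups are named below as they were labelled, and directions drawn from the labels carry this limit.

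The 5 genes lie on chromosome 5 in a stretch of 146.641 kb (GRCm38.p6, RefSeq) that holds 7 protein-coding genes. Their order along the chromosome is Cxcl5 (probe set 17438955, chr5:90759298-90761625), Ppbp (probe set 17438963, chr5:90768518-90770063), Pf4, Cxcl3 (probe set 17438975, chr5:90786101-90788093), Cxcl15, Cxcl1 (probe set 17438987, chr5:90891245-90893121) and Cxcl2 (probe set 17438995, chr5:90903899-90905938). RefSeq promoter sequences of the same build matched 4 of the 5 members, all but Cxcl5. The 110 bases before the start of each are given because 3 genes that were high in the same 4 pools share a stretch that is missing before Ppbp, whose pools overlapped. Capitals mark the shared run GGGAATTTCCC, which was found on comparing the sequences, and the TATA box letters TATAAA.
Cxcl1, chr5:90891135-90891244, plus strand: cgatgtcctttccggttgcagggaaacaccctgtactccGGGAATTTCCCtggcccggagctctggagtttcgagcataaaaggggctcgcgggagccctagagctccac
Cxcl2, chr5:90903789-90903898, plus strand: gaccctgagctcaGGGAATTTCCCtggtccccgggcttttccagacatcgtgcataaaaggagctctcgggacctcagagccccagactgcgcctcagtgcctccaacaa
Cxcl3, chr5:90785991-90786100, plus strand: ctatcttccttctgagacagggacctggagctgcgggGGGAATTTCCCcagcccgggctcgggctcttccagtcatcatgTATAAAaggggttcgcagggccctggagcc
Ppbp, chr5:90768408-90768517, plus strand: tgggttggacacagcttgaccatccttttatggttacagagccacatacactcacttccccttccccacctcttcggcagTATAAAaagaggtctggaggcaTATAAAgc

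The run of 11 letters overlaps a match to the consensus of NF-kB, the transcription factor that IL-1, TNF and IL-17 receptors activate. Counted from the gene start, the match on the plus strand lay at -71 to -62 in Cxcl1, at -97 to -88 in Cxcl2 and at -73 to -64 in Cxcl3, and none lay in the 250 bases before Ppbp. Over both strands of the 250 bases before the start, 7.25% of 32851 RefSeq promoters held an NF-kB match, and 0.0426%, 14 promoters, held the full run. The run was defined as the longest stretch common to the 3 members that held an NF-kB match. These 3 are thus among the 14 by construction, and the share is no measure of enrichment. Of the genes of those 14 promoters, 9 were measured. Apart from Cxcl1, Cxcl2 and Cxcl3 none of them passed the test between IL-17C+ involved and WT skin, and the difference farthest from 0 among them was that of Krtap5-3, a hair keratin-associated protein, at 1.04 ± 0.44 (SE, limma adjusted p = 0.360). The AP-1 letters TGANTCA were present before Ppbp at -204 to -198 and in 6.75% of promoters, the C/EBP letters TTNNGNAAT in none of the 4 and in 10.2% of promoters, and TATAAA before Cxcl3 and Ppbp and in 12.4% of promoters. These matches describe the letters only.

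**Figure D1:**
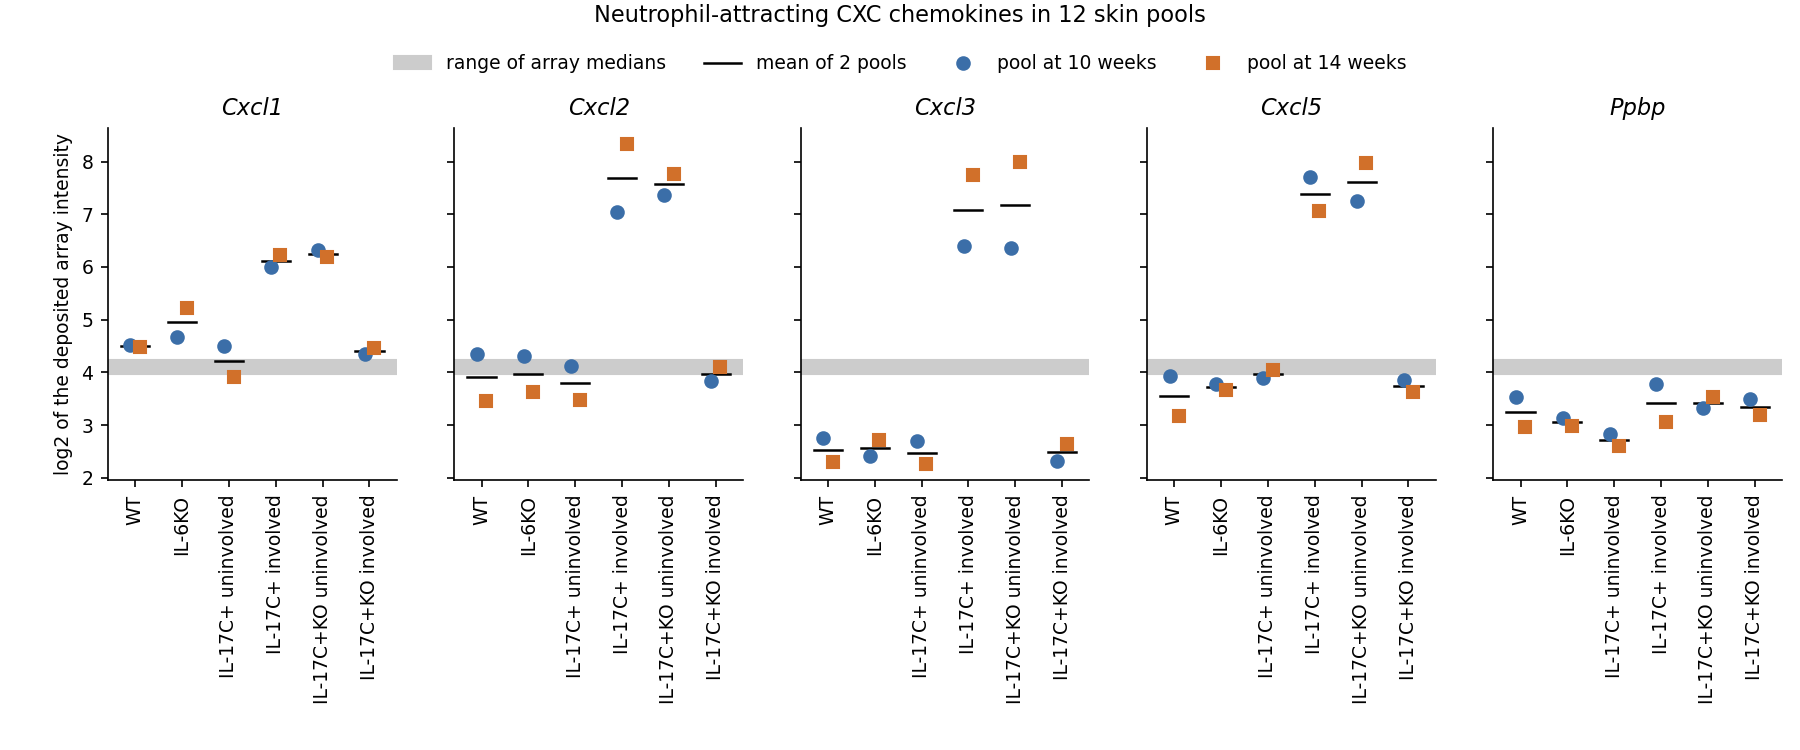
Log2 of the deposited intensity (vertical axis) of the 5 chemokines in each pool, by labelled group (horizontal axis), with circles for 10 weeks, squares for 14 weeks, a black line for the mean of 2 pools and a grey band for the range of array medians, 3.97 to 4.23. Cxcl1, Cxcl2, Cxcl3 and Cxcl5 stand high in IL-17C+ involved and IL-17C+KO uninvolved skin, and Ppbp lies below the array medians in all 12 pools.

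Cxcl1, a main CXCR2 ligand of tissue cells in the mouse, lay at 4.52 and 4.48 in WT skin at 10 and 14 weeks, 4.67 and 5.23 in IL-6KO skin, and 4.51 and 3.92 in IL-17C+ uninvolved skin. It lay at 6.00 and 6.22 in IL-17C+ involved skin, 6.32 and 6.19 in IL-17C+KO uninvolved skin, and 4.35 and 4.46 in IL-17C+KO involved skin. The gap between the high pools and the others was 0.77, the smallest of the 4 separated genes. From the top, the group means ran from IL-17C+KO uninvolved at 6.25 ± 0.10 (SD, n = 2) and IL-17C+ involved at 6.11 ± 0.16 to IL-6KO at 4.95 ± 0.40, WT at 4.50 ± 0.03, IL-17C+KO involved at 4.41 ± 0.08 and IL-17C+ uninvolved at 4.21 ± 0.42. The pools of the first and second group overlapped, as did those of the last and next to last. Neither IL-6KO nor IL-17C+KO involved skin passed the test against WT skin across all genes (limma adjusted p = 0.729 and 0.948).

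Cxcl2, a CXCR2 ligand made by macrophages, mast cells and activated neutrophils as well as by epithelium, lay at 4.35 and 3.46 in WT skin, 4.32 and 3.63 in IL-6KO skin, and 4.12 and 3.48 in IL-17C+ uninvolved skin. It lay at 7.04 and 8.34 in IL-17C+ involved skin, 7.37 and 7.77 in IL-17C+KO uninvolved skin, and 3.84 and 4.10 in IL-17C+KO involved skin. The high pools lay 2.69 above the others. The means of the low groups, 3.80 to 3.97, did not differ beyond the spread within them, and neither did those of the high groups, 7.69 ± 0.92 and 7.57 ± 0.28.

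Cxcl3, a close relative of Cxcl1 and Cxcl2, lay at 2.77 and 2.30 in WT skin, 2.41 and 2.73 in IL-6KO skin, and 2.70 and 2.26 in IL-17C+ uninvolved skin. It lay at 6.41 and 7.74 in IL-17C+ involved skin, 6.35 and 7.98 in IL-17C+KO uninvolved skin, and 2.32 and 2.65 in IL-17C+KO involved skin. Its gap of 3.59 was the widest of the 5 genes, with group means of 7.17 and 7.07 in the high groups and 2.48 to 2.57 in the others, which overlapped. All 8 low values were below the medians of their arrays, so the fold changes of Cxcl3 depend on values near the floor of the array. Cxcl1, Cxcl2 and Cxcl3 are similar in sequence, and hybridisation of 1 gene's RNA to another's probes was not tested.

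Cxcl5, a chemokine of epithelial cells and fibroblasts, lay at 3.94 and 3.18 in WT skin, 3.78 and 3.66 in IL-6KO skin, and 3.90 and 4.04 in IL-17C+ uninvolved skin. It lay at 7.70 and 7.06 in IL-17C+ involved skin, 7.25 and 7.97 in IL-17C+KO uninvolved skin, and 3.86 and 3.62 in IL-17C+KO involved skin. Its gap was 3.02, with group means of 7.61 and 7.38 in the high groups, whose pools overlapped, and 3.56 to 3.97 in the others. Its 8 low values were also below the medians of their arrays.

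Ppbp lay at 3.54 and 2.97 in WT skin, 3.14 and 2.99 in IL-6KO skin, and 2.84 and 2.60 in IL-17C+ uninvolved skin. It lay at 3.78 and 3.07 in IL-17C+ involved skin, 3.33 and 3.53 in IL-17C+KO uninvolved skin, and 3.50 and 3.19 in IL-17C+KO involved skin. Every value was below the array median, the high pools of the other genes overlapped the other 8 here, and the IL-17C+ uninvolved pools were the lowest. Ppbp was the 1 member that failed a filter requiring 2 arrays above their median. Cxcl3 and Cxcl5 were above the array median only in the 4 high pools and passed the filter through them. A refit after that filter is therefore no separate support for their calls.

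The effect of the transgene with IL-6 intact was read from IL-17C+ skin against WT skin. In involved skin 4 of the 5 chemokines rose, against 1.10% of all genes. Cxcl3 rose by 4.54 ± 0.44 (SE, 23.2-fold, limma adjusted p = 3.47e-04), Cxcl5 by 3.82 ± 0.32 (14.1-fold, adjusted p = 1.20e-04), Cxcl2 by 3.78 ± 0.43 (13.8-fold, adjusted p = 8.92e-04) and Cxcl1 by 1.61 ± 0.27 (3.05-fold, adjusted p = 0.0110). Ppbp differed by 0.17 ± 0.22 (adjusted p = 0.850). Each of the 4 genes was higher at both ages, with differences at 10 and 14 weeks of 1.48 and 1.74 for Cxcl1, 2.69 and 4.88 for Cxcl2, 3.64 and 5.44 for Cxcl3, and 3.76 and 3.89 for Cxcl5. The call of Cxcl1 was lost without the IL-17C+ involved pool of 10 weeks (adjusted p = 0.0828) or of 14 weeks (0.119) or the WT pool of 14 weeks (0.0690), while its difference stayed between 1.49 and 1.73. These are RNA levels of whole skin, in which more cells that make a chemokine and more RNA per cell cannot be told apart.

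In IL-17C+ uninvolved skin against WT skin 0 of the 5 chemokines passed, against 0.0541% of all genes. The differences were -0.29 ± 0.27 for Cxcl1, -0.11 ± 0.43 for Cxcl2, -0.05 ± 0.44 for Cxcl3, 0.41 ± 0.32 for Cxcl5 and -0.54 ± 0.22 for Ppbp, with limma adjusted p from 0.846 to 0.991. The 95% intervals reached up to 0.29 for Cxcl1, 0.82 for Cxcl2, 0.89 for Cxcl3 and 1.10 for Cxcl5, all below the differences seen in involved skin. Over all genes 1261 had an unadjusted p under 0.05 in this comparison, Ppbp among them.

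Within the IL-17C+ line, involved skin exceeded uninvolved skin in 4 of 5 chemokines, against 0.775% of all genes. The differences were 1.90 ± 0.27 for Cxcl1 (limma adjusted p = 0.00384), 3.89 ± 0.43 for Cxcl2 (8.40e-04), 4.59 ± 0.44 for Cxcl3 (2.49e-04) and 3.41 ± 0.32 for Cxcl5 (2.49e-04). Ppbp differed by 0.71 ± 0.22 (adjusted p = 0.174). Without the IL-17C+ involved pool of 14 weeks the Cxcl1 call was lost (adjusted p = 0.0742), at a difference of 1.78. In this comparison 13 of 16 skeletal muscle genes fell. With the mean level of that list as a covariate 0 of the 5 chemokines and 0 of all genes passed, and standard errors grew by a median factor of 2.19. The differences were then 1.46 ± 0.58 for Cxcl1, 3.53 ± 0.92 for Cxcl2, 4.76 ± 0.93 for Cxcl3 and 3.55 ± 0.70 for Cxcl5.

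Loss of IL-6 without the transgene was read from IL-6KO against WT skin, where 0 of 5 chemokines passed, against 0.455% of all genes. Cxcl1 differed by 0.45 ± 0.27 (95% interval -0.13 to 1.03, limma adjusted p = 0.729), and the other 4 by between -0.19 and 0.16. The IL-6KO pool of 14 weeks, at 5.23, held the highest Cxcl1 value outside the high groups.

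The transgene in skin lacking IL-6 was read against IL-6KO skin. In the pools labelled IL-17C+KO uninvolved, 3 of 5 chemokines rose, against 0.392% of all genes. Cxcl3 rose by 4.60 ± 0.44 (24.3-fold, limma adjusted p = 3.34e-04), Cxcl5 by 3.89 ± 0.32 (14.8-fold, adjusted p = 1.21e-04) and Cxcl2 by 3.60 ± 0.43 (12.1-fold, adjusted p = 0.00189). Cxcl1 differed by 1.30 ± 0.27 (2.47-fold, adjusted p = 0.0669) and did not pass. That Cxcl1 value passed with only the arrays of the compared groups in the fit (adjusted p = 0.00138), with low genes filtered out (0.0407), and without either IL-17C+ uninvolved pool (0.0305 and 0.0307). The Cxcl2 call was lost without the IL-6KO pool of 14 weeks (adjusted p = 0.0544) or the IL-17C+KO uninvolved pool of 14 weeks (0.0689).

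In the pools labelled IL-17C+KO involved, 0 of 5 chemokines passed against IL-6KO skin, where 0.171% of all genes passed. The differences were -0.54 ± 0.27 for Cxcl1, 0.00 ± 0.43 for Cxcl2, -0.08 ± 0.44 for Cxcl3, 0.03 ± 0.32 for Cxcl5 and 0.28 ± 0.22 for Ppbp, all with a limma adjusted p of 0.999 or above. Against WT skin the same pools also had 0 of 5 passing, against 0.0225% of all genes, with differences between -0.09 and 0.19. The IL-17C+KO uninvolved pools against WT skin had 4 of 5 higher, against 1.12% of all genes, by 1.75 ± 0.27 for Cxcl1, 3.66 ± 0.43 for Cxcl2, 4.63 ± 0.44 for Cxcl3 and 4.05 ± 0.32 for Cxcl5. There the Cxcl1 call was lost without the IL-17C+KO uninvolved pool of 10 weeks or of 14 weeks. With the muscle level as a covariate 1 of the 5 chemokines passed, and 5 of all genes did.

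**Figure D2:**
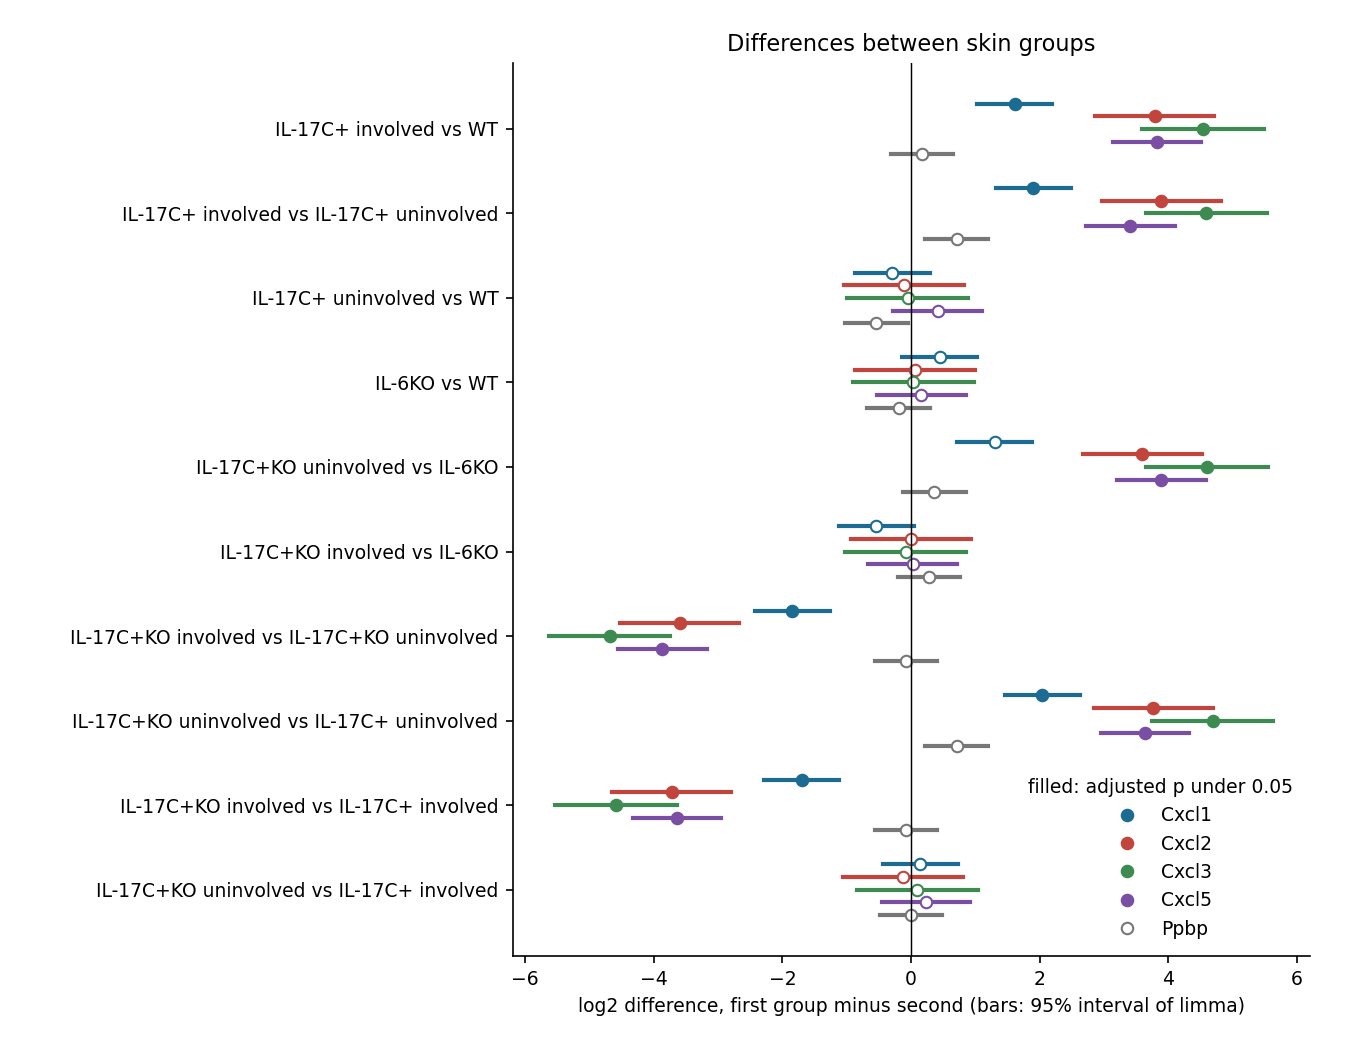
Log2 differences of the 5 chemokines in 10 comparisons of labelled groups (horizontal axis, first group minus second), with bars for the 95% interval of limma and filled points for an adjusted p under 0.05. Ppbp is unfilled throughout, and the 4 other genes lie right of 0 where only the first group is IL-17C+ involved or IL-17C+KO uninvolved and left of 0 where only the second is; where both are, the intervals cross 0.

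Within the IL-17C+KO line, skin labelled involved was lower than skin labelled uninvolved in 4 of 5 chemokines, against 0.478% of all genes that were lower. Cxcl1 fell by 1.85 ± 0.27 (limma adjusted p = 0.0104), Cxcl2 by 3.60 ± 0.43 (0.00198), Cxcl3 by 4.68 ± 0.44 (2.85e-04) and Cxcl5 by 3.87 ± 0.32 (1.75e-04). The direction was the same at both ages, at -1.97 and -1.72 for Cxcl1, -3.53 and -3.67 for Cxcl2, -4.03 and -5.33 for Cxcl3, and -3.38 and -4.35 for Cxcl5. Ppbp differed by -0.08 ± 0.22. The Cxcl1 call was lost without either IL-17C+KO uninvolved pool (adjusted p = 0.114 and 0.105) or the IL-17C+KO involved pool of 10 weeks (0.163), and the Cxcl2 call without the IL-17C+KO uninvolved pool of 14 weeks (0.0620).

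Loss of IL-6 in transgenic skin gave opposite signs by labelled site. In skin labelled involved, IL-17C+KO was lower than IL-17C+ in 4 of 5 chemokines, against 0.419% of all genes, by -1.70 ± 0.27 for Cxcl1, -3.72 ± 0.43 for Cxcl2, -4.59 ± 0.44 for Cxcl3 and -3.64 ± 0.32 for Cxcl5. In skin labelled uninvolved, IL-17C+KO was higher than IL-17C+ in the same 4 genes, against 0.541% of all genes, by 2.04 ± 0.27 for Cxcl1, 3.77 ± 0.43 for Cxcl2, 4.69 ± 0.44 for Cxcl3 and 3.64 ± 0.32 for Cxcl5. The limma adjusted p values ran from 3.56e-04 to 0.0127 in the first and from 2.16e-04 to 0.00256 in the second. In involved skin the Cxcl1 call was lost without either IL-17C+ involved pool (adjusted p = 0.0967 and 0.152) or the IL-17C+KO involved pool of 10 weeks (0.215). With the muscle level as a covariate 0 of the 5 passed at either site, and of all genes 0 passed in involved and 3 in uninvolved skin.

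The difference between those effects was itself tested as an interaction. For IL-6 loss by site, 4 of 5 chemokines passed, all lower, against 1.43% of all genes that were lower. For IL-6 loss by transgene in involved skin, the change from IL-17C+ to IL-17C+KO minus the change from WT to IL-6KO, 4 of 5 were lower, against 0.834% of all genes. In that involved term not all 4 calls held without the IL-17C+KO involved pool of 10 weeks or the WT pool of 14 weeks. With the muscle level as a covariate 0 of the 5 chemokines and 0 of all genes passed. Without the covariate 13 of 16 muscle genes were higher in the same term. For the same term in uninvolved skin 3 of 5, Cxcl2, Cxcl3 and Cxcl5, were higher, against 0.0857% of all genes, and Cxcl1 differed by 1.59 ± 0.38 (limma adjusted p = 0.245). In the uninvolved term 0 of the 5 passed without the WT pool of 10 weeks, without either IL-6KO pool or without the IL-17C+KO uninvolved pool of 14 weeks, and 1 passed without the IL-17C+ uninvolved pool of 14 weeks. These comparisons share arrays with each other and with the ones above, so their values are not separate evidence.

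All 3 interactions depend on which IL-17C+KO pools are called involved. They were therefore also computed with the site labels of the IL-17C+KO pools exchanged, a reading that the labels do not give and that was added after the values were seen. For IL-6 loss by site, Cxcl3 then stood at 0.09 (95% interval -1.24 to 1.42) in place of -9.27, Cxcl2 at -0.29 (-1.61 to 1.02), Cxcl5 at 0.46 (-0.52 to 1.43) and Cxcl1 at -0.05 (-0.88 to 0.77). For IL-6 loss by transgene these 4 genes then lay between -0.30 and 0.07 in involved skin and between -0.39 and 0.10 in uninvolved skin, and every interval of theirs crossed 0. Whether the labels were exchanged was not tested, and no pool was relabelled.

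The 2 high groups were also set against each other, a comparison added after their values were seen. IL-17C+KO uninvolved minus IL-17C+ involved skin was 0.14 (95% interval -0.44 to 0.73) for Cxcl1, -0.13 (-1.06 to 0.80) for Cxcl2, 0.10 (-0.85 to 1.04) for Cxcl3, 0.23 (-0.46 to 0.92) for Cxcl5 and 0.00 (-0.49 to 0.49) for Ppbp. In this comparison 0 of 22180 genes passed the limma test at an adjusted p under 0.05, a share of 0%, and 1012 had an unadjusted p under 0.05. The intervals still reach -1.06 for Cxcl2 and 1.04 for Cxcl3.

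Age was confounded with the replicate pool and had 0 of 5 chemokines passing over all groups, with 0% of all genes passing and 1856 at an unadjusted p under 0.05. Cxcl3 differed by 0.45 ± 0.25 between 14 and 10 weeks (limma adjusted p = 0.607), and Cxcl1 by 0.02 ± 0.16. In the high groups Cxcl3 was higher at 14 weeks, by 1.33 in IL-17C+ involved and 1.63 in IL-17C+KO uninvolved skin, while its change in the other groups lay between -0.46 and 0.33. Cxcl2 changed by 1.30 and 0.40 in the high groups, and Cxcl5 by -0.64 and 0.73. With 1 pool per age in a group, these changes have no replicate.

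The other genes of the chromosome 5 cluster give the neighbours' values in the same pools. Pf4, platelet factor 4, lies between Ppbp and Cxcl3 and differed by -0.06 ± 0.36 between IL-17C+ involved and WT skin and by 0.94 ± 0.36 (limma adjusted p = 0.552) between IL-17C+KO uninvolved and IL-6KO skin. Cxcl15, a neutrophil attractant of lung epithelium that was not among the listed 5, lies between Cxcl3 and Cxcl1 and differed by -0.04 ± 0.18 and 0.15 ± 0.18. The genes that passed in IL-17C+ involved skin were thus interleaved along the chromosome with 3 that did not. Among those 3, Ppbp and Cxcl15, the latter at 2.37 to 3.03, lay below the array median in every pool. Their differences therefore hold little information on a response. Pf4, at 5.89 to 7.20, lay above the array median in every pool.

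**Figure D3:**
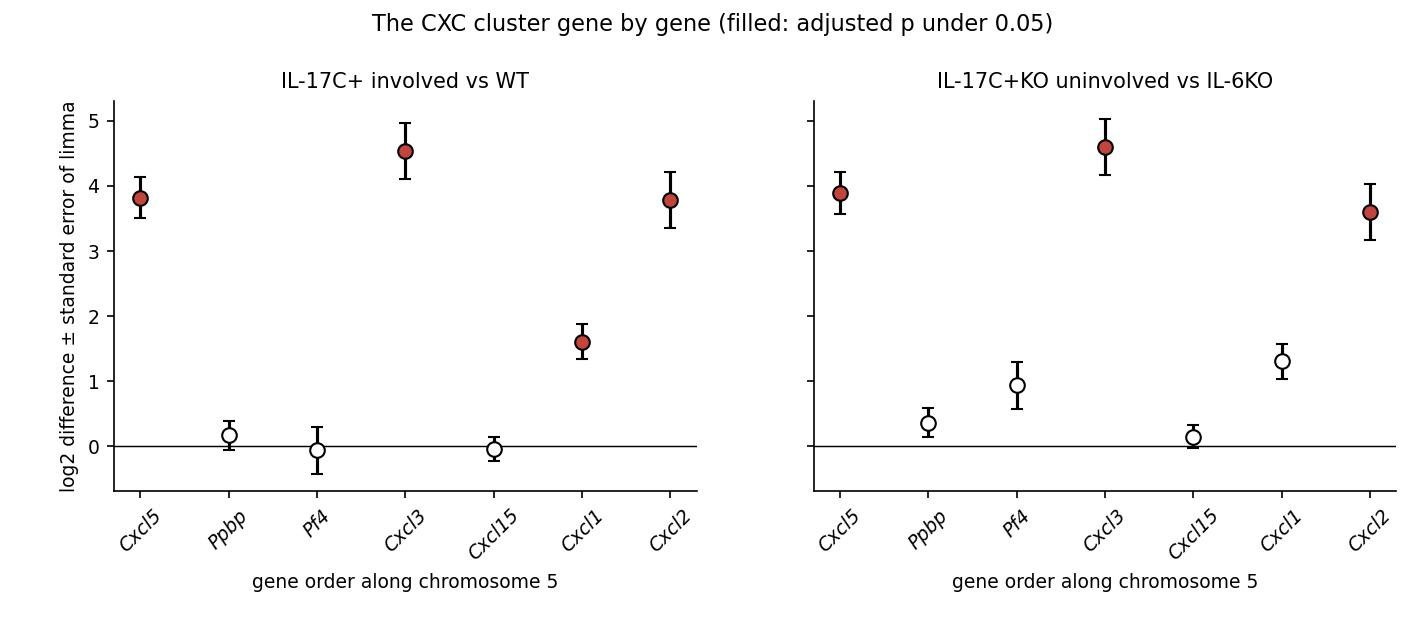
Log2 difference with the standard error of limma (vertical axis) for the 7 genes of the chromosome 5 cluster in chromosomal order (horizontal axis, not to scale), for IL-17C+ involved against WT skin and IL-17C+KO uninvolved against IL-6KO skin. Cxcl5, Cxcl3 and Cxcl2 are filled (adjusted p under 0.05) in both panels, Cxcl1 in the first only, and Ppbp, Pf4 and Cxcl15 in neither.

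Of 10 further CXC chemokines, all measured, none passed in any comparison by limma. They are of mixed kinds and include Cxcl15, Pf4 and attractants of lymphocytes. Their median difference between IL-17C+ involved and WT skin was -0.03, against 0.01 over all genes, and between IL-17C+KO uninvolved and IL-6KO skin 0.02, against -0.01. Cxcl13, the attractant of B cells, differed by 1.10 ± 0.63 (limma adjusted p = 0.559) in the first comparison. Cxcl11, a T cell attractant, differed by -0.69 ± 0.35 (0.473).

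Of 8 chemokine receptor genes, 2 rose between IL-17C+ involved and WT skin, against 1.10% of all genes. Cxcr2, the neutrophil receptor of these chemokines, lay at 4.13 and 3.90 in WT skin, 4.88 and 5.20 in IL-6KO skin, and 4.23 and 4.19 in IL-17C+ uninvolved skin. It lay at 6.82 and 6.91 in IL-17C+ involved skin, 6.83 and 7.12 in IL-17C+KO uninvolved skin, and 4.21 and 5.45 in IL-17C+KO involved skin. The high and low pools were the same as for the chemokines and did not overlap. Cxcr2 rose by 2.85 ± 0.31 (limma adjusted p = 7.43e-04) against WT and by 1.94 ± 0.31 (0.0169) in IL-17C+KO uninvolved against IL-6KO skin. Cxcr4, the receptor of Cxcl12, rose by 1.34 ± 0.27 (0.0288) and by 0.99 ± 0.27, which did not pass (0.240). Cxcr1 differed by 0.51 ± 0.24 and 0.36 ± 0.24, and Ackr1, which carries chemokines across venules, by -0.68 ± 0.29 and -0.04 ± 0.29, none of them passing.

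Of 17 measured cytokines and receptors known to act upstream of these chemokines, 3 rose between IL-17C+ involved and WT skin, against 1.10% of all genes. Among those 3 was Il17c, the overexpressed cytokine itself. Between IL-17C+KO uninvolved and IL-6KO skin 2 of the 17 rose, against 0.392% of all genes. Il1b, encoding interleukin-1 beta, lay between 10.40 and 11.08 in the 4 high pools and between 4.85 and 6.42 in the other 8. It rose by 5.88 ± 0.46 (limma adjusted p = 7.87e-05) and 5.27 ± 0.46 (1.89e-04). Il1a rose by 2.43 ± 0.33 (0.00304) and differed by 0.87 ± 0.33 (0.562), with levels of 5.03 and 6.74 in IL-6KO skin against 4.29 and 4.61 in WT skin. Il1r1, the IL-1 receptor, differed by 1.10 ± 0.30 (0.0969) and 1.52 ± 0.30 (0.0551). Il17c rose by 1.40 ± 0.30 (0.0329) and differed by -0.03 ± 0.30, Tlr2 differed by 0.94 ± 0.25 (0.0807) and rose by 1.43 ± 0.25 (0.0256), and Tnf differed by 1.29 ± 0.39 (0.145) and 1.27 ± 0.39 (0.350). Il17a, the T cell cytokine of psoriasis, differed by -0.14 ± 0.20 and -0.03 ± 0.20. Its levels, 3.19 to 3.62, lay below the array median in every pool, so these values cannot show whether it changed. The Il36 ligands had no row of their own and were not measured.

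Of 19 measured genes of NF-kB, C/EBP and chemokine mRNA stability, 1 rose in each of these comparisons, against 1.10% and 0.392% of all genes. Cebpb, a transcription factor that acts with NF-kB downstream of IL-17 receptors, rose by 1.11 ± 0.24 (limma adjusted p = 0.0335) in IL-17C+ involved skin. Tnfaip3, a feedback inhibitor of NF-kB, rose by 1.60 ± 0.31 (0.0480) in IL-17C+KO uninvolved skin. Its levels in the reference groups were 5.15 and 5.73 in IL-6KO and 6.27 and 5.81 in WT skin. Zc3h12a, an RNase that degrades cytokine mRNAs, differed by 1.11 ± 0.27 (0.0609) and 0.09 ± 0.27 (0.976). Its reference levels were 6.76 and 7.09 in IL-6KO skin against 6.05 and 5.67 in WT skin.

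Genes of neutrophil capture, some of vessels and some of leukocytes, rose in 1 of 11 cases between IL-17C+ involved and WT skin. Between IL-17C+KO uninvolved and IL-6KO skin 3 of 11 rose. Of all genes, 1.10% and 0.392% rose in these comparisons. Selp, encoding P-selectin of activated endothelium and platelets, rose by 1.93 ± 0.36 (limma adjusted p = 0.0185) and 2.12 ± 0.36 (0.0241). Sele, encoding E-selectin, differed by 1.42 ± 0.35 (0.0674) and rose by 1.92 ± 0.35 (0.0409). Itgam, an integrin subunit of neutrophils and macrophages, differed by 1.28 ± 0.38 (0.142) and rose by 2.19 ± 0.38 (0.0290). Cd177, a neutrophil surface protein that binds endothelium, differed by 1.87 ± 0.53 (0.114) and 2.44 ± 0.53 (0.0853).

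Marker genes of neutrophils were high in the same pools as the chemokines. Of 18 measured, counting Cxcr2 too, 9 rose between IL-17C+ involved and WT skin, against 1.10% of all genes, with a median difference of 1.52. Between IL-17C+KO uninvolved and IL-6KO skin 10 rose, against 0.392% of all genes, with a median of 1.84. Retnlg, a resistin-like protein of neutrophils, rose by 5.08 ± 0.46 (limma adjusted p = 2.48e-04) and 5.54 ± 0.46 (1.28e-04). The mean log2 level of the list lay between 5.64 and 6.26 in the high groups and between 3.59 and 4.18 in the others. Elane and Mpo, granule genes transcribed in bone marrow precursors, lay between 2.77 and 3.80 and between 3.08 and 3.67 over all pools, below every array median. Platelet genes, the usual source of Ppbp, had 0 of 10 passing in every comparison and a mean level between 4.14 and 4.54.

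Other tissue markers moved with the groups as well. The keratinocyte list had 4 of 9 higher between IL-17C+ involved and WT skin, against 1.10% of all genes, with a median of 1.52. Between IL-17C+KO uninvolved and IL-6KO skin 1 of 9 was higher, against 0.392% of all genes, with a median of 0.34. The mean level of the list was 10.31 to 10.34 and 9.98 to 10.17 in the high groups and 8.03 to 9.49 in the others. Krt6b, a keratin of stressed epidermis, rose by 6.50 ± 0.65 (limma adjusted p = 4.57e-04) and 3.47 ± 0.65 (0.0446). The list also holds the stress keratins Krt6a, Krt16 and Krt17, so its mean is not a measure of keratinocyte number alone. Mast cell genes rose in 4 of 8 cases against WT and in 1 of 8 against IL-6KO skin. Their mean level was 6.39 to 6.44 in IL-17C+ involved and 5.77 to 5.97 in IL-17C+KO uninvolved skin. It was 4.47 to 5.14 in the others, so the mast cell mean separated the same pools too. Macrophage and dendritic cell genes rose in 1 and fell in 1 of 10 against WT and rose in 1 of 10 against IL-6KO skin. Fibroblast genes had 0 of 8 passing against WT, with a median of -0.04, and 1 of 8 higher against IL-6KO skin, with a median of 1.38. Their mean level was lower in IL-6KO skin, at 8.79 to 8.81, than in WT skin, at 9.86 to 9.98, and 3 of 8 fell between them. Endothelial genes had 0 of 8 passing in both comparisons, with medians of 0.21 and 0.78.

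Hair shaft genes differed between the reference groups, with a mean level of 5.03 to 5.41 in WT and 8.39 to 8.41 in IL-6KO skin, where 7 of 9 were higher with a median difference of 2.94. Between IL-17C+ involved and WT skin 3 of 9 were higher, against 1.10% of all genes, with a median of 1.70. Between IL-17C+KO uninvolved and IL-6KO skin 0 of 9 passed. In the interaction of IL-6 loss and transgene, 8 of 9 were lower in involved skin, with a median of -4.88, and 4 of 9 in uninvolved skin, with a median of -3.61. The hair list did not separate the pools high in chemokines, its mean level being 6.74 to 7.57 in them and 4.33 to 8.95 in the others. The part of these cell types in the chemokine values was not tested.

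Skeletal muscle genes moved most in the other direction, 14 of 16 falling between IL-17C+ involved and WT skin with a median of -2.29. The muscle list had a mean level of 7.61 to 7.92 in IL-17C+ involved skin, 9.76 to 10.51 in WT and 10.03 to 10.31 in IL-17C+ uninvolved skin. With that mean as a covariate, 0 of the 5 chemokines and 0 of all genes passed between IL-17C+ involved and WT skin, 895 genes having an unadjusted p under 0.05. Standard errors were then larger by a median factor of 2.16, and the differences were 1.18 ± 0.57 for Cxcl1, 3.43 ± 0.91 for Cxcl2, 4.71 ± 0.92 for Cxcl3 and 3.96 ± 0.69 for Cxcl5. Between IL-17C+KO uninvolved and IL-6KO skin, whose muscle levels overlapped at 8.28 to 8.84 and 8.20 to 9.05, 0 of 16 muscle genes passed. There the covariate left the same 3 chemokines and 102 of all genes called. The differences were 3.59 ± 0.44 for Cxcl2, 4.61 ± 0.44 for Cxcl3 and 3.89 ± 0.33 for Cxcl5.

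**Figure D4:**
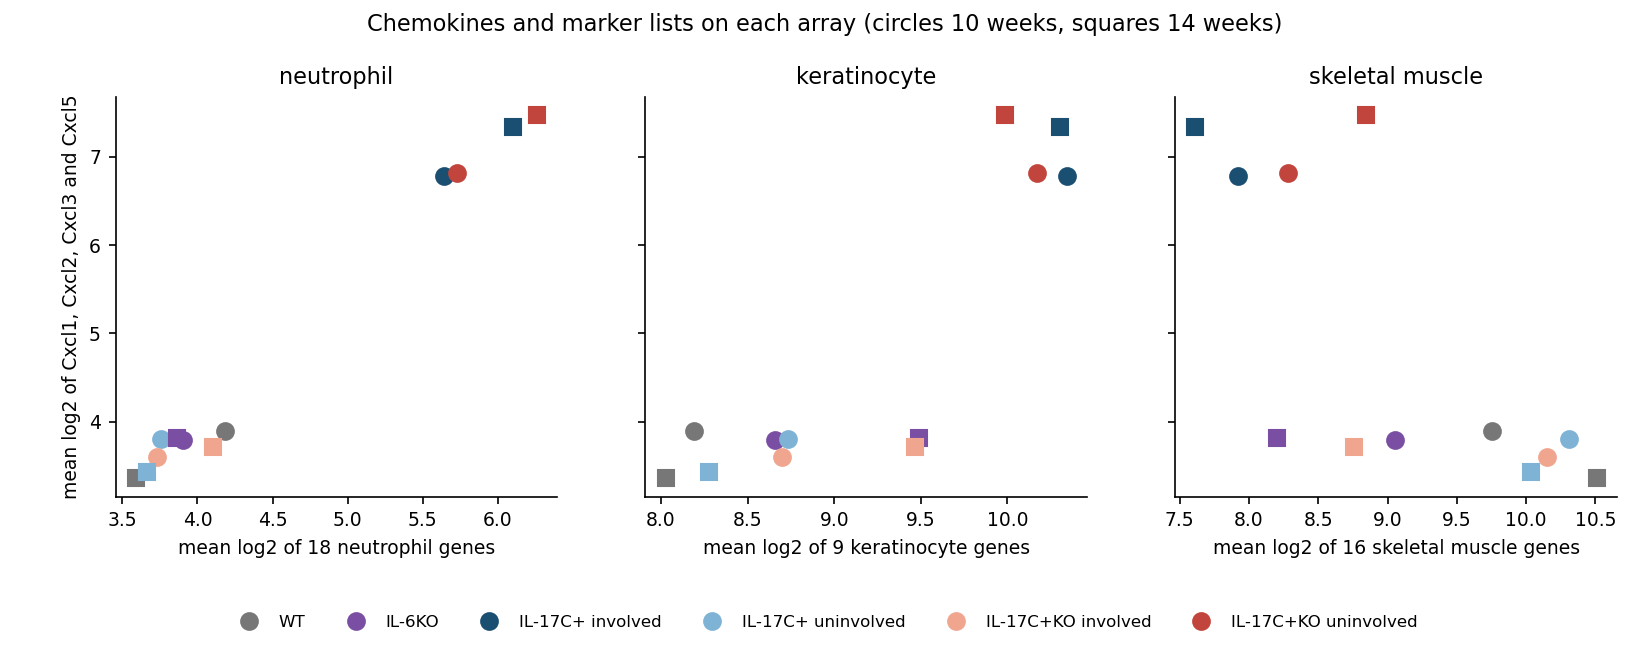
Mean log2 level of Cxcl1, Cxcl2, Cxcl3 and Cxcl5 in each pool (vertical axis) against the mean log2 level of 18 neutrophil, 9 keratinocyte and 16 skeletal muscle genes (horizontal axes), with 1 colour per group, circles for 10 weeks and squares for 14 weeks. The 4 pools of IL-17C+ involved and IL-17C+KO uninvolved skin lie at a chemokine mean of 6.79 to 7.48 and the other 8 at 3.36 to 3.90, and the neutrophil and keratinocyte means separate the same pools while the muscle mean does not.

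Genes whose profiles over the 12 pools were most like each chemokine were ranked among 10679 genes of above-median level, by the root-mean-square difference between profiles centred on their own mean. The nearest to Cxcl2 were Clec4d, a lectin receptor of myeloid cells, at 0.32, Hdc, the histamine-forming enzyme of the mast cell list, at 0.33, and Acod1, the itaconate-forming enzyme of activated myeloid cells, at 0.34. Cxcl3 was nearest to Clec4d at 0.39, the neutrophil collagenase gene Mmp8 at 0.52 and Acod1 at 0.56. Cxcl5 was nearest to the collagenase gene Mmp13 at 0.44, Mmp8 at 0.45 and the collagen gene Col12a1 at 0.46. Cxcl1, whose range was smaller, was nearest to Pla2g7 at 0.29, haptoglobin (Hp) at 0.30 and Mmp19 at 0.33. Among the chemokines themselves Cxcl2 and Cxcl5 differed by 0.50, Cxcl2 and Cxcl3 by 0.54 and Cxcl3 and Cxcl5 by 0.65, while Cxcl1 differed from them by 1.06 to 1.47. Cxcl1 was nearer to Ppbp, at 0.74, than to any of these 3, since the measure also counts the size of the changes, which was smaller in both. The group means of Ppbp spanned 0.71, under the span of 1 required, and it was not matched.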

How the data were processed

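RNA of 12 pools of mouse dorsal skin was measured on Affymetrix arrays. The deposited values are intensities that the authors summarised by RMA in Affymetrix Expression Console, per the submitters' processing notes. They lie on a linear scale from 2.50 to 18385, so log2 was taken here, and array medians then ran from 3.97 to 4.23. RMA compresses differences between low values. Of 41345 rows, 23521 named 1 gene, 1814 several and 16010 none in the platform annotation. Only rows naming 1 gene were used. A gene on several rows, as 1082 were, was read from its brightest row on average, giving 22180 genes, of which RefSeq held 21994 by identifier with the same symbol.

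A model of group and age over all 12 arrays was fitted with limma 3.58.1 in R 4.3.3 (eBayes with intensity trend, 5 residual and 7.65 prior degrees of freedom), with Benjamini-Hochberg adjustment over all genes and a threshold of 0.05. The step was tested on simulated data. The members and lists were chosen with earlier results of these data known. From each list up to 3 passing genes and the largest difference that did not pass were eligible to be named, and the 3 nearest profiles for likeness. Cxcr1, Il17a, Elane, Mpo, Krtap5-3 and Cxcl15 were added after their values were seen. Alternatives were no age term, no trend, a filter on low values, renewed quantile normalisation, the mean of a gene's rows, compared groups only, a muscle covariate, a block of genotype and age, leaving out each array, leaving out the 6 arrays labelled as lacking IL-6, and, for the interactions, exchanging the IL-17C+KO site labels; the last 2 were added after seeing the data. The number of arrays limits the precision.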

Additional observations from a re-analysis of the deposited data

Results flagged for a closer look

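The effect of IL-6 loss on the chemokines differed by labelled site in transgenic skin, by a test of the difference itself. The change from IL-17C+ to IL-17C+KO in involved skin minus that in uninvolved skin was -3.74 ± 0.38 (SE, limma adjusted p = 1.81e-04) for Cxcl1, -7.49 ± 0.61 (2.97e-05) for Cxcl2, -9.27 ± 0.62 (5.16e-06) for Cxcl3 and -7.27 ± 0.45 (3.71e-06) for Cxcl5, with both ages on the same side in each gene. With the site labels of the IL-17C+KO pools exchanged, the term of each of these 4 chemokines lay between -0.29 and 0.46 with a 95% interval across 0. With the muscle level as a covariate only Cxcl3 and Cxcl5 of the chemokines passed, and 14 of all genes did. As labelled, the term was -10.10 ± 0.65 for Il1b, -10.54 ± 0.65 for Retnlg and -4.80 ± 0.44 for Cxcr2.

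The effect of IL-6 loss also differed between skin with and without the transgene. In involved skin the difference was -2.15 ± 0.38 (limma adjusted p = 0.0162) for Cxcl1, -3.79 ± 0.61 (0.0104) for Cxcl2, -4.62 ± 0.62 (0.00450) for Cxcl3 and -3.80 ± 0.45 (0.00219) for Cxcl5. None of these passed with the muscle level as a covariate, where 0 of all genes passed. Not all 4 calls held without the IL-17C+KO involved pool of 10 weeks or the WT pool of 14 weeks. In uninvolved skin it was 3.70 ± 0.61 (0.0337) for Cxcl2, 4.65 ± 0.62 (0.0119) for Cxcl3 and 3.48 ± 0.45 (0.0105) for Cxcl5. All 3 of these calls were lost without the WT pool of 10 weeks, without either IL-6KO pool or without the IL-17C+KO uninvolved pool of 14 weeks, and that of Cxcl2 also without the trend (0.0680) and after renewed quantile normalisation (0.0592). All of these terms rest on the site labels of the IL-17C+KO pools, and the opposite order of the sites in the lines was not resolved from the labels.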

How the results depend on the processing

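With 2 pools a group, a call can rest on 1 pool, and levels below the array median hold little information. Of 742 recomputed values of the 38 called chemokine differences, 676 stayed past the threshold, 66 did not and 0 changed sign; 26 of the 66 came from the muscle covariate, 38 from leaving out an array and 2 from other settings, both for Cxcl2 in the interaction of IL-6 loss and transgene in uninvolved skin (limma adjusted p = 0.0680 without the trend and 0.0592 after renewed quantile normalisation). Of 782 values of the 42 uncalled differences 4 passed, all Cxcl1 in IL-17C+KO uninvolved against IL-6KO skin, and 55 changed sign while uncalled. With the muscle covariate 0 chemokines were called in IL-17C+ involved against WT and in IL-17C+ involved against uninvolved skin. The number was also 0 in IL-17C+KO against IL-17C+ skin at either site and in the interaction of IL-6 loss and transgene in involved skin. It was 1 in IL-17C+KO uninvolved against WT and 2 in the interaction with site. In these comparisons standard errors grew by median factors of 1.63 to 2.19, and 0 to 14 of all genes were called. Over the settings that left out 1 array, the number called ran from 2 to 4 in IL-17C+KO involved against uninvolved skin (2 without the IL-17C+KO uninvolved pool of 14 weeks), from 2 to 4 in the involved interaction (2 without the IL-17C+KO involved pool of 10 weeks or the WT pool of 14 weeks) and from 0 to 3 in the uninvolved one. The labels give no replicate numbers that pair the pools; a replicate block of genotype and age changed no number of chemokines called where it could be fitted, with 4 called between the sites of IL-17C+ skin, between those of IL-17C+KO skin and in the interaction with site.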
